A study of Mus musculus with 4 samples.

Results

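The regions described are the peaks called in 1 of 2 peak lists only, in a ChIP-seq study of the transcription factor TEAD1 in cardiac fibroblasts of newborn mice. They were chosen by overlap: a peak of list 1 belonged to the set when its interval touched no interval of list 2 by 1 bp or more, and the reverse for list 2. This gave 6190 of 21285 peaks in list 1 (29.1%, 95% Wilson interval 28.5 to 29.7%) and 6073 of 21218 in list 2 (28.6%, 28.0 to 29.2%). The remaining 15095 and 15145 peaks overlapped the other list and are called shared. Together, 12263 of 42503 peaks were list-only. The choice used the calls themselves, so heights, widths and counts of these peaks are descriptions, and no test was made of them. The intervals printed cover counting error only.

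ChIP-seq recovers the DNA bound by a protein with an antibody and counts its fragments against input, chromatin that was sonicated but not precipitated. The labels give 4 groups with 1 library each: ChIP and input from cells overexpressing TEAD1 (OE-TEAD1), and ChIP and input from cells of the overexpression negative control (OE-NC). All 4 came from neonatal mouse cardiac fibroblasts fixed with formaldehyde, and the sources used here do not give the vectors, the antibody or the animals behind each culture. Neither list is tied to a group by its labels, so no direction between OE-TEAD1 and OE-NC is given, and with 1 library per group a difference between the lists has no replicate check.

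TEAD1 binds DNA through its TEA domain at short motifs built around GGAATG and has little activity of its own. The Hippo pathway kinases hold its coactivators YAP and TAZ in the cytoplasm, and when they enter the nucleus they bind TEAD factors and switch on genes for matrix, cytoskeleton and growth. Many TEAD sites lie in enhancers far from genes, often beside motifs of AP-1, a dimer of Fos and Jun proteins. In cardiac fibroblasts this pathway is known for its part in the change to matrix-producing myofibroblasts.

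Few list-only peaks lay at promoters, but those that did allow the DNA under them to be read. Promoter windows of RefSeq (build GRCm38.p6) run from 250 bases before to 50 after a transcription start and cover 17273 protein-coding genes in 21044 windows, with none on chromosome 18. List-1-only peaks met 120 windows of 113 genes, and list-2-only peaks met 85 windows of 83 genes. GGAATG, searched on both strands, stood in 35 of the 120 windows (29.2%, 21.8 to 37.8%) and in 23 of the 85 (27.1%, 18.8 to 37.3%). Windows met by shared peaks held it in 37.0% of list 1 (87 of 235) and 34.5% of list 2 (82 of 238), and all windows in 13.5% (2837 of 21044). The list-only windows were thus above the share of all windows in both lists, and their intervals overlapped those of the shared windows. Some windows have a peak and bases in common, as those of Cpne1 and Rbm12 in list 1. The intervals treat each window as separate. The longer form GGAATGT, which contains the shorter one, stood in 13.3% and 14.1% of the list-only windows against 3.41% of all. The AP-1 motif TGACTCA stood in 10% and 14.1% against 4.69%. Median GC content was 51.5% and 50% in the list-only windows and 56.7% in all windows, and its part in these shares was not tested.

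The motif stood close to some of the summits, a summit being the base with most fragments, but most list-only summits had none within 50 bases. Of the list-only summits at least 50 bases inside a window, 14 of 41 in list 1 (34.1%, 21.6 to 49.4%) and 7 of 29 in list 2 (24.1%, 12.2 to 42.1%) had GGAATG within 50 bases. The shared summits had it in 39.0% (30 of 77) and 38.7% (29 of 75). Where the window held the motif, the median distance from a list-only summit to the nearest one was 9.5 bases in list 1 and 31.5 in list 2. For shared summits it was 17.5 and 17.0 bases. The span of the same length that ends at the start held it in 3.95% of all windows (831 of 21044). The few summits make the intervals wide, and list-only and shared summits overlapped in both lists.

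The next 5 sequences were taken from the 8 list-only promoter peaks of highest −log10 q, the authors' adjusted significance, to show promoters with and without a motif. Each is the part of the 250 upstream bases that lay inside the peak, read 5′ to 3′ on the gene's strand. They are from the RefSeq promoter table of GRCm38.p6, and capitals mark GGAATG or TGACTCA on either strand. The list 1 peak at Plekhg2 and the list 2 peaks at Rin1, a Ras effector, and at the predicted gene Gm6712 each held GGAATG, and the list 2 peak at Emp1, an epithelial membrane protein, held the AP-1 motif. The peak at Myl6, a myosin light chain, was the strongest list-1-only peak at a promoter and held neither. The other three of the 8, at Atp5l, Lyz2 and Gpat3, are not printed and held neither motif in the upstream bases they covered, so 4 of the 8 had a motif there. At Gpat3 these were only 9 bases.
Plekhg2: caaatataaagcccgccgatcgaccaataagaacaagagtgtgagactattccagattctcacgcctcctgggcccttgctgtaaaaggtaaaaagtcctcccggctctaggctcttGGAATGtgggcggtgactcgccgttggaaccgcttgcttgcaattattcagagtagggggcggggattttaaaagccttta
Rin1: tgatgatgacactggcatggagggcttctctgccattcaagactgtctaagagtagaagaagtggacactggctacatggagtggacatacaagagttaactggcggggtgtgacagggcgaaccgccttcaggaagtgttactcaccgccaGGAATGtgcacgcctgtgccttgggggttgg
Gm6712: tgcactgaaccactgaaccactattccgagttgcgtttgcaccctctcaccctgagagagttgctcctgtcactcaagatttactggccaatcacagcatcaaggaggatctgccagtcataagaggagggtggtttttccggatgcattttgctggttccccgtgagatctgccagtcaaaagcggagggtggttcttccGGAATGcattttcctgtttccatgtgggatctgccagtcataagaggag
Emp1: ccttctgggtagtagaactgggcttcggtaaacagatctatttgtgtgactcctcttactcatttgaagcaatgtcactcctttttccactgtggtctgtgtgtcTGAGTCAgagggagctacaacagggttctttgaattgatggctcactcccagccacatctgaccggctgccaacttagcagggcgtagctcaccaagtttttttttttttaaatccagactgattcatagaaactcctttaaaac
Myl6: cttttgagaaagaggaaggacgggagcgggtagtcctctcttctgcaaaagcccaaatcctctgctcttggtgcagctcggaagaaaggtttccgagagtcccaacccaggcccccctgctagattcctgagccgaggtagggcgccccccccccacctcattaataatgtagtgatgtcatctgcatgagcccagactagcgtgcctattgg

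These stretches lie at chr7:28372715-28372912 (Plekhg2, minus strand), chr19:5050632-5050814 (Rin1, plus), chr17:17294193-17294442 (Gm6712, plus), chr6:135362681-135362930 (Emp1, plus) and chr10:128493924-128494136 (Myl6, minus). The GGAATG of Plekhg2 began at base -133 from the start and the summit lay at -138. In Rin1 the motif began at -31 and the summit lay at -34, and in Gm6712 at -49 and -57. In Emp1 the AP-1 motif began at -145, but the summit lay 368 bases past the start. The fold over input, the authors' ratio of ChIP to background fragments at the summit, was 9.92 at Plekhg2 on 26 fragments, 13.3 at Rin1 on 37, 10.1 at Gm6712 on 28, 10.6 at Emp1 on 31 and 14.7 at Myl6 on 39. No window of these 5 genes was met by a peak of the other list.

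List-only peaks were mostly the weak end of each list. Their median fold was 4.73 in list 1 and 4.89 in list 2, against 7.58 and 8.37 for shared peaks. The median list-only summit rested on 13 ChIP fragments in list 1 (quartiles 11 and 16) and 15 in list 2 (12 and 18), and the median shared summit on 24 and 27. Local background, the fragments expected from the input, was nearly the same: a median of 1.86 against 2.07 in list 1, and of 1.94 against 2.03 in list 2. Median widths were 350 and 341 bp for list-only and 545 and 509 bp for shared peaks. Only 59 list-1-only peaks (0.953%) and 111 list-2-only peaks (1.83%) stood 10-fold or more over input, against 31.9% and 38.6% of shared peaks.

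The share of peaks that were list-only dropped with every step in fragment number. At 8 to 9 fragments it was 82.8% in list 1 and 84.7% in list 2. It was 60.4% and 63.7% at 10 to 14 fragments, 35.9% and 42.1% at 15 to 19, and 12.4% and 18.9% at 20 to 29. From 30 to 49 fragments it was 1.86% and 3.52%, and at 50 or more it was 0.280% (6 of 2141) and 0.401% (12 of 2991). List 2 lay above list 1 in every class of fragment number. The intervals of the lists did not overlap from 10 to 49 fragments. Fragment numbers were not scaled between the lists, and the median over all peaks was 19 in list 1 and 22 in list 2. With each list divided by −log10 q into 5 classes of 20%, the weakest had 64.67% and 64.75%. The next had 45.8% and 44.9%, 25.9% and 25.7%, 8.43% and 7.31%, and 0.564% and 0.448%. Of the 12 list-2-only peaks with 50 or more fragments, 9 lay in one stretch of chromosome 9 with raised background and 2 inside Sfi1, both described further on, and the last was a peak at Wnt4.

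**Figure D1:**
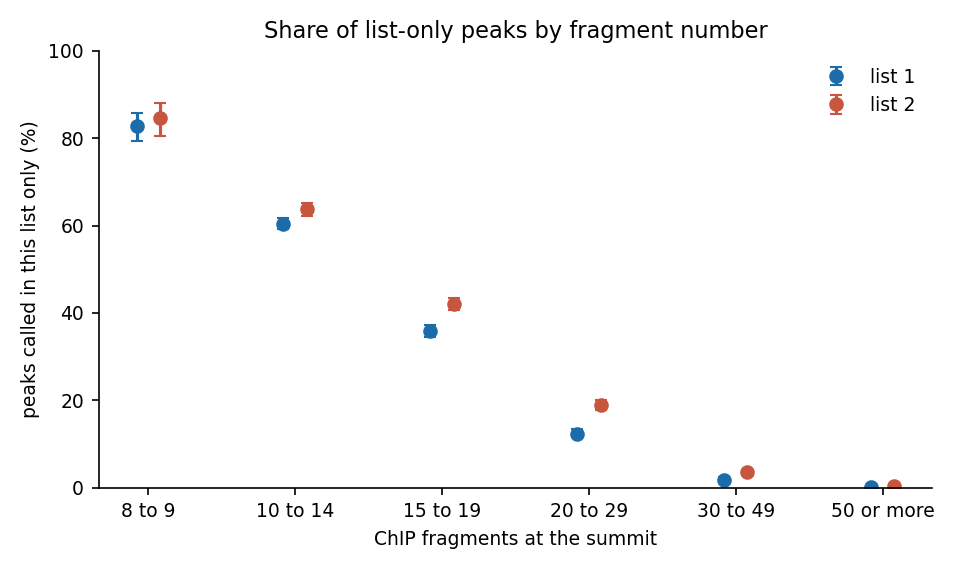
Share of peaks called in 1 list only (%) by ChIP fragments at the summit (number), for list 1 and list 2. Points are shares and bars are 95% Wilson intervals. The share goes from 82.8% and 84.7% at 8 to 9 fragments to 0.280% and 0.401% at 50 or more.

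List-only summits lay a median of 14.9 kb from the nearest summit of the other list in list 1 (quartiles 4.82 and 40.1 kb) and 16.3 kb in list 2 (4.88 and 49.9 kb). Only 233 (3.76%) and 238 (3.92%) had one within 1 kb, and 25.7% and 25.5% within 5 kb. Up to that distance the lists were alike, and beyond it list 1 ran ahead: 80.1% of list-1-only and 75.1% of list-2-only summits had one within 50 kb, and 91.5% and 87.3% within 100 kb. Where the nearest summit lay within 5 kb, it belonged to a shared peak in 1175 of 1588 cases in list 1 (74.0%) and 1140 of 1546 in list 2 (73.7%). Over all peaks, 15145 of 21218 in list 2 and 15095 of 21285 in list 1 were shared. Most nearest summits would thus belong to shared peaks in any case. Another 97 pairs joined a list-1-only and a list-2-only summit within 1 kb of each other. One such pair stood 272 bases and 1.09 kb from an end of Fzd2, a Wnt receptor, 822 bases apart, at 6.24-fold in list 1 and 6.4-fold in list 2. Within the list itself, 26.8% and 25.8% of list-only summits had a neighbour within 5 kb, against 30.6% and 30.9% of shared ones.

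**Figure D2:**
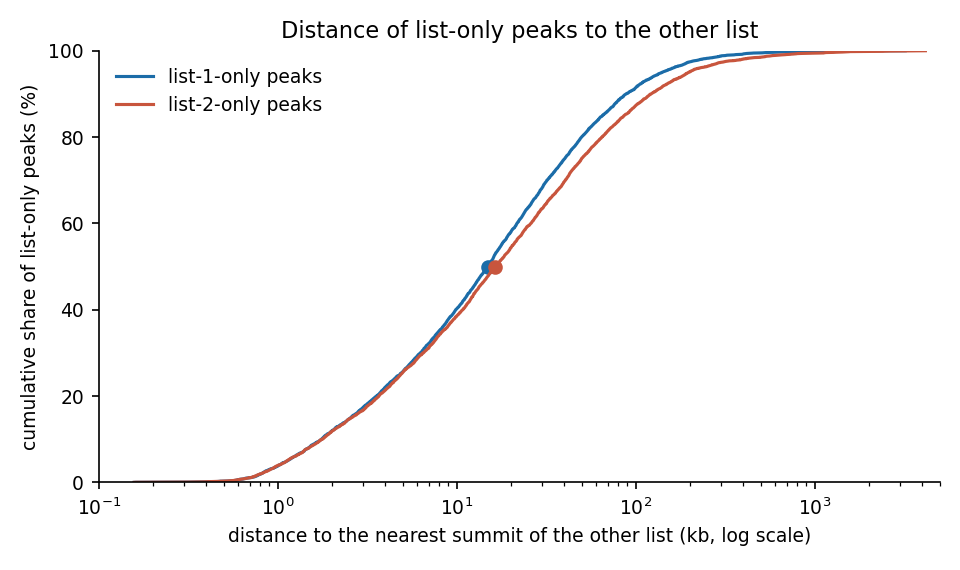
Cumulative share of list-1-only and list-2-only peaks (%) by the distance from their summit to the nearest summit of the other list (kb, log scale). Dots mark the medians, 14.9 and 16.3 kb, and the curves part beyond about 10 kb, where list 2 lies lower.

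Peaks at the edge of the rule were weak or side by side. The list-1-only peak nearest to overlap stood 7 bp from a list 2 peak, with Tmem106b as its nearest gene, at 4.41-fold. The closest in list 2 stood 6 bp from a list 1 peak, 22.5 kb from Capn8, at 9.27-fold. The shared peaks of smallest overlap, 8 bp in each list, lay inside Cdc42 at 2.81-fold in list 1 and inside Ptpn5 at 5.23-fold in list 2. Gaps under 500 bp were found for 194 list-1-only and 217 list-2-only peaks.

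List-only summits lay within 10 kb of a gene end more often than shared ones, and in list 2 the difference did not hold at longer distances. The gene table gives spans without strand, so distance was taken to the nearer end of any protein-coding span. Within 10 kb lay 33.9% of list-1-only summits (32.7 to 35.1%) against 28.1% of shared ones (27.4 to 28.9%), and 31.0% of list-2-only summits (29.9 to 32.2%) against 28.1% (27.4 to 28.8%). Within 1 kb the values were 6.30% against 4.90% in list 1 and 5.52% against 4.87% in list 2. For genes with a known transcription start, a measure added after the data were seen, shares within 1 kb of one were compared too. They were 4.61% of list-1-only summits against 3.31% of shared, and 3.88% against 3.25% in list 2. In both 1 kb measures the intervals overlapped in list 2. Within 50 kb of a gene end lay 70.1% against 66.3% in list 1 and 67.0% against 66.3% in list 2. Within 100 kb the values were 84.1% against 81.5% and 81.0% against 81.4%. The share inside a gene span was 49.6% (48.3 to 50.8%) against 47.9% in list 1 and 47.4% (46.1 to 48.6%) against 47.9% in list 2, so it differed little. Summits outside genes and over 100 kb from any end made up 10.3% of list-1-only and 13.0% of list-2-only peaks, against 12.7% of shared peaks in both lists. Exons, introns and untranslated regions were not analysed here.

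The distance to genes was also set against peaks of like strength, with each list divided by −log10 q into 5 classes of 20% of its peaks. In list 1, list-only peaks lay within 10 kb of a gene more often than shared peaks in all 5 classes, from the weakest up: 33.6% against 30.3%, 33.0% against 28.5%, 34.6% against 28.4%, 37.0% against 28.3%, and in the strongest 58.3% (14 of 24) against 26.8%. The intervals were apart in all but the weakest class. In list 2 they were 31.5% against 28.0%, 30.3% against 29%, 32.2% against 29.4%, 27.1% against 28.0% and 42.1% (8 of 19) against 26.6%, and the intervals overlapped in each class. With both lists limited to their 10000 peaks of highest −log10 q, the difference was smaller, at 29.9% (28.1 to 31.8%) against 27.4% (26.4 to 28.4%) in list 1 and 28.3% against 27.4% in list 2, where the intervals overlapped in both lists.

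**Figure D3:**
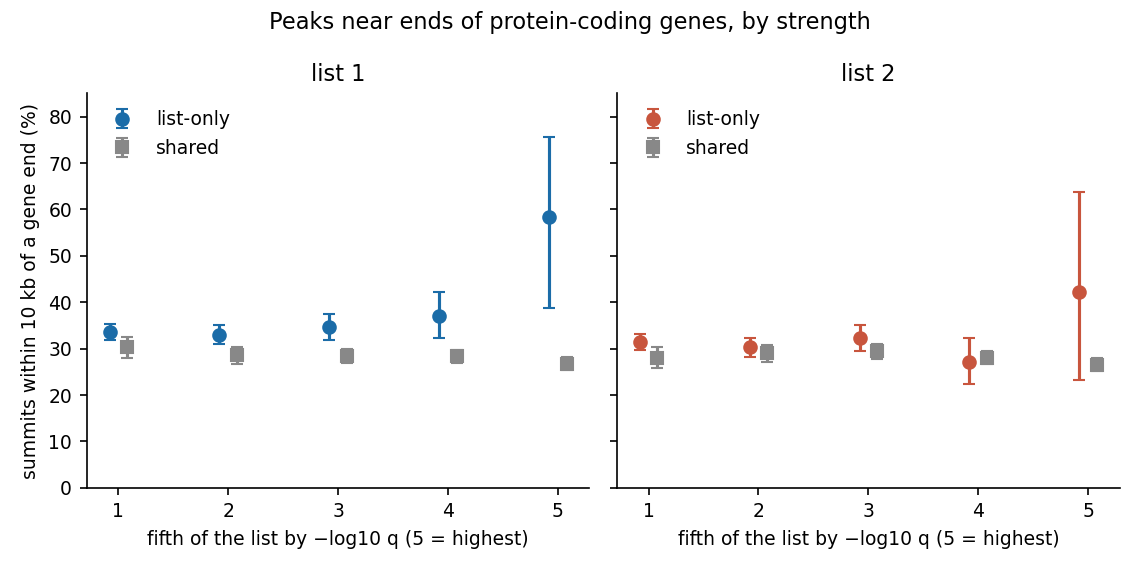
Share of list-only and of shared summits (%) lying at most 10 kb from a protein-coding gene, in 5 classes of the list by −log10 q, with list 1 and list 2 in separate panels. Bars are 95% Wilson intervals, and list-only points lie above shared ones in 5 of 5 classes of list 1 and 4 of 5 of list 2.

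The strongest list-only peaks reached the height of shared ones. In list 1 the highest −log10 q (80.1) belonged to a peak on chromosome 18, 3.44 kb from Malt1, a scaffold protein of NF-kappa-B signalling. It had 69 fragments and 25.7-fold over input (20.1 to 32.4, exact Poisson interval), and the nearest list 2 summit was 46.0 kb away. A peak inside Ano2, a chloride channel (chr6:125876911-125877174), had 51 fragments and 19.1-fold. At chr10:79984662-79985718, between Tmem259 and Cnn2, which encodes the actin-binding protein calponin 2, the peak had 47 fragments and 17.6-fold (13.1 to 23.3), with a list 2 summit of 5.79-fold 1.5 kb away. The peak between Ciao2a and Snx1 (chr9:66125720-66126229) had 39 fragments and 13.0-fold and stood only 83 bp from a list 2 peak of 3.96-fold. The other list-1-only peaks of highest −log10 q near genes were at Myl6, Tspan4, Fads1, Marchf10, Emc3, Dhrs1, Slc18a1, Ubtd2 and Tctn2, at 10.6- to 14.7-fold.

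In list 2 the highest −log10 q (89.0) belonged to a peak 1.44 kb upstream of Wnt4, a secreted Wnt ligand, at chr4:137275699-137276360. It had 76 fragments and 26.9-fold (21.2 to 33.5), and the nearest list 1 summit was 63.1 kb away. List 1 had its own strong peak in the same region, in the gene desert before Wnt4 at chr4:137200259-137200778, with 52 fragments and 17.2-fold (13.0 to 22.5). It lay 77 kb from Wnt4, and the nearest list 2 summit, 75.6 kb away, was the Wnt4 peak. Each list thus held a strong site before Wnt4 that the other did not call.

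Other strong list-2-only peaks lay near genes of varied function. A peak 3.16 kb from Epha2, an ephrin receptor (chr4:141297918-141298207), and a peak inside Vgll4, which encodes a TEAD cofactor that competes with YAP (chr6:114888706-114889204), both had 49 fragments and 17.4-fold (13.0 to 22.9). The nearest list 1 summits were 11.4 and 22.9 kb away. A peak 94.8 kb from Igfbp7, a secreted binding protein for insulin-like growth factors, had 46 fragments and 15.5-fold, and a peak inside Uvrag, an autophagy gene, had 44 and 15.7-fold. Lif, a cytokine of the interleukin-6 family, held a peak of 36 fragments and 12.9-fold in its span. Snx30, Crispld2, Tuft1, Gabrp, C1qtnf1 and Lnpep had peaks of 12.5- to 14.7-fold.

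Genes were counted as having a nearby peak at a distance of 10 kb or less between a summit and an end of the span. Of 21627 protein-coding genes, 1303 had nearby summits in list 1 only, 1208 in list 2 only and 4552 in both. List-only peaks were near 2498 genes in list 1 and 2282 in list 2. Of these, 1203 and 1078 also had a nearby summit of the other list. Both lists' list-only peaks were near 480 genes, 248 of which had no nearby shared peak. Genes with 4 nearby list-only peaks in list 1 were Mindy1 (of 4 nearby peaks in all), Prune1 (of 5) and Musk (of 6). In list 2 they were F2r (of 5), Atf1 and Mdfic (of 6 each) and Vmp1 (of 10). Over all nearby peaks the list-only share was 33.0% in list 1 and 30.7% in list 2. Mindy1 and Prune1 are neighbours that share peaks.

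Nearby peaks were then grouped by 17 gene lists. Of all nearby peaks, 33.0% (2096 of 6342) were list-only in list 1 and 30.7% (1885 of 6134) in list 2, and against these the shares of a list are read. Peaks near YAP/TEAD target genes were list-only in 10 of 40 (25%) in list 1 and 6 of 36 (16.7%) in list 2, below the share of all nearby peaks in both. For activated fibroblast genes they were 8 of 43 (18.6%) and 12 of 47 (25.5%), for other extracellular matrix genes 9 of 36 (25%) and 6 of 33 (18.2%), and for actin cytoskeleton and adhesion genes 13 of 52 (25%) and 12 of 51 (23.5%). The strongest of these list-only peaks were at Cnn2 (17.6-fold), the matrix gene Fbln2 (9.18-fold), the collagen gene Col3a1 (7.16-fold) and Tgfb2 (6.51-fold) in list 1. In list 2 they were at the matrix regulator Thbs1 (6.98-fold), the actin-bundling gene Actn4 (6.60-fold), Mmp2, a matrix protease (6.28-fold), and Gadd45b, a stress response gene (5.99-fold). These 4 groups lay below the share of all nearby peaks in both lists, as did 8 of the 17 in all. The others of the 8 were AP-1 and immediate-early genes, growth factors and their receptors, smooth muscle and pericyte markers, and cell cycle genes. AP-1 genes in list 1 and growth factor genes in list 2 lay close to that share. No intervals were computed for the groups, and they were not matched for peak strength. The list-only share fell with −log10 q over all peaks, and the part of strength in the shares of the groups was not tested.

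In 3 of the 17 groups the share was higher in list 1 and lower in list 2 than for all nearby peaks: resident fibroblast markers, TGF-beta and BMP genes, and endothelial markers, which had few peaks. Peaks near resident fibroblast markers were list-only in 12 of 29 (41.4%) in list 1 and 2 of 19 (10.5%) in list 2. The list 1 members were Gsn (8.08-fold), Mfap5 (7.06-fold), Fbln1 (6.51-fold), Abca8a, Pi16, Col15a1, Vim and Dcn. Gsn alone had 3 of the 12 peaks, at 3.02- to 8.08-fold. Mfap5 and Pi16 mark quiescent fibroblasts of the adventitia, and Abca8a, Dcn, Mfap5 and Pi16 had nearby summits in list 1 only. Peaks near TGF-beta and BMP genes were list-only in 12 of 26 (46.2%) and 4 of 19 (21.1%). They included Id1, a target of BMP signalling (6.98-fold), the ligand Tgfb2 (6.51-fold), the receptors Tgfbr3, Acvr1 and Bmpr1a, and the transducers Smad4 and Smad7 in list 1, and Smad4 (6.98-fold), Bmp6, Tgfb2 and Bmp4 in list 2. AP-1 and immediate-early genes had 8 of 25 (32.0%) in list 1, close to the share of all nearby peaks, and 2 of 20 (10%) in list 2. Fosl1 stood at 5.82-fold with a list 2 summit 657 bases away, and Egr1 at 4.85-fold.

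Of 33 Wnt genes, 8 had a nearby peak in list 1 and 11 in list 2. Of these peaks, 6 of 13 (46.2%) and 7 of 14 (50%) were list-only. In list 1 these were at Lrp6 (6.61-fold), Fzd2 (6.24-fold), Wnt10b, Sfrp2 and Gsk3b, and in list 2 at Wnt4 (26.9-fold), Fzd2 (6.4-fold), Tcf7l2, Axin2, Lrp6, Tcf7 and Wnt10b. Axin2, a feedback target of Wnt signalling, Tcf7 and Wnt4 had nearby summits in list 2 only. Hippo pathway genes had 7 of 23 (30.4%) and 10 of 26 (38.5%), with Vgll4 (5.88-fold) and Nf2 (5.51-fold) in list 1 and Mob1a (7.66-fold) and Yap1 (4.18-fold) leading in list 2. The stronger list-2-only peak inside Vgll4 given above is not counted here, since only summits within 10 kb of a span end are. The Yap1 peak lies in the stretch of chromosome 9 with raised background. Growth factor genes had 8 of 30 (26.7%) and 9 of 31 (29%), near the share of all nearby peaks.

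Markers of other cell types the cultures could hold had nearby summits about as often as all protein-coding genes, or more often, except endothelial markers in list 2. Over all protein-coding genes, 27.1% (5855 of 21627) had a nearby summit in list 1 and 26.6% (5760) in list 2. The counts were 7 and 9 of 24 cardiomyocyte, 5 and 2 of 20 endothelial, 6 and 6 of 20 leukocyte, 7 and 8 of 15 smooth muscle and pericyte, and 6 and 5 of 12 epicardial markers. Resident fibroblast markers had nearby summits in 16 and 12 of 18. Of the nearby peaks, list-only ones numbered 3 of 7 and 6 of 10 for cardiomyocyte markers, 3 of 6 and 1 of 4 for endothelial, 2 of 7 and 3 of 8 for leukocyte, 2 of 10 and 3 of 11 for smooth muscle and pericyte, and 2 of 6 and 3 of 7 for epicardial markers. The highest −log10 q among them belonged to the promoter of Lyz2, a macrophage and neutrophil lysozyme (chr10:117282103-117282601), with 31 fragments and 7.98-fold in list 1 and the nearest list 2 summit 71.2 kb away. Next came Bnc1, an epicardial transcription factor, at 8.72-fold on 24 fragments in list 2. Peaks near cell cycle genes were list-only in 3 of 12 in each list, and those near neuronal genes in 4 of 8 and 2 of 6. The lists of genes were chosen with earlier results of these data known, and a peak near a gene says nothing of the gene's expression.

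**Figure D4:**
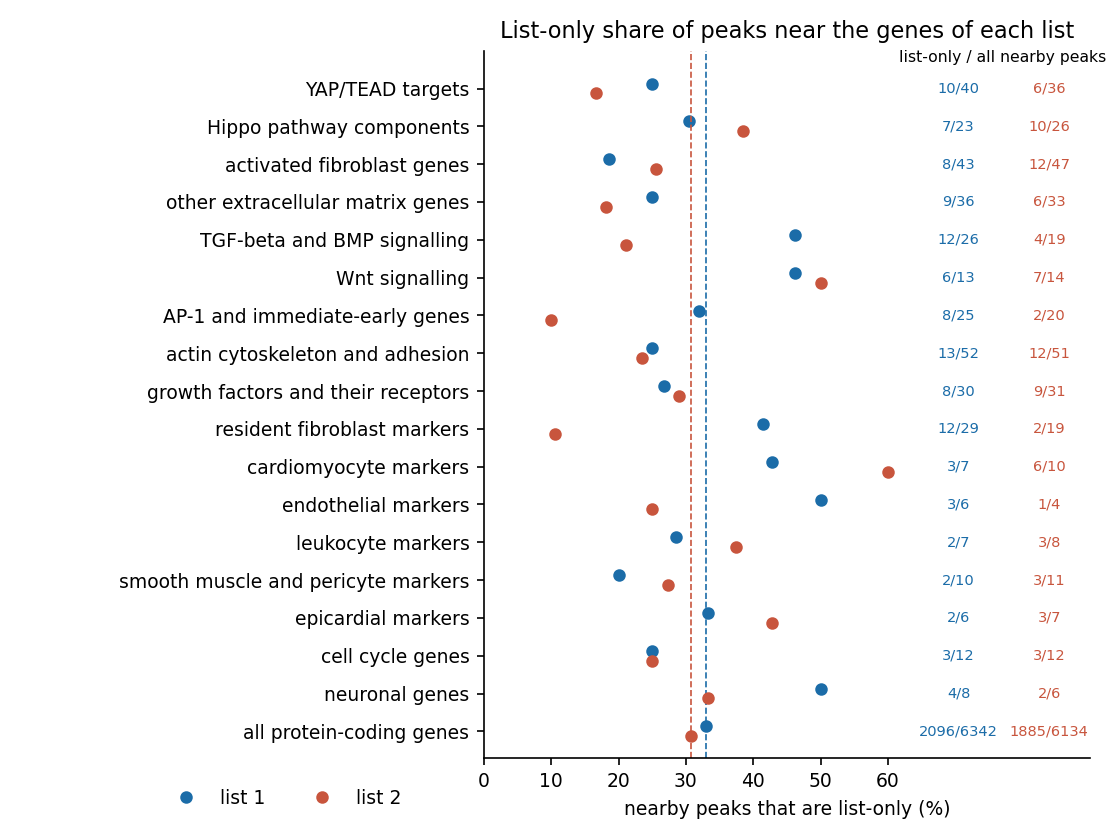
Share of peaks within 10 kb of the genes of each list that were list-only (%), for list 1 and list 2, with the counts at the right. Dashed lines mark the shares over all protein-coding genes, 33.0% and 30.7%. Each point lies left of its own list's line in 8 of the 17 gene lists, among them YAP/TEAD targets and cell cycle genes. No intervals were computed for the points, and the gene lists were not matched for peak strength.

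Of the 22 YAP/TEAD target genes, 16 had a nearby summit in each list, F3 in list 1 only and Gadd45b in list 2 only. All 5 summits of each list within 10 kb of Ccn1, a matricellular gene induced by YAP, were shared. At Ccn2, its relative, list 1 had a list-only peak of 3.41-fold 4.44 kb from the gene beside shared peaks of 15.7- and 24.9-fold. At Ankrd1, a muscle ankyrin repeat gene, list 2 had a list-only peak of 3.09-fold inside the gene beside shared peaks of up to 20.2-fold. Tead1 itself held list-only peaks of 5.21-fold in list 1 and 6.28-fold in list 2 in its span, beside 7 shared ones in each list. Each of these list-only peaks was weaker than the strongest shared peak of its gene.

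The genes with most list-only summits inside were mostly long and held many summits in all. In list 1 Ank3, a membrane skeleton adaptor, held 9 list-only summits of 24 in its span, and Arid5b, Dlgap2, Dnm3, Foxp1, Mrtfa, Rabgap1l, Rad51b and Thsd4 held 7 each, of 15 to 22 summits. Mrtfa encodes an actin-sensing coactivator of serum response factor, and list 2 had 9 summits there with 1 list-only. In list 2 Pdgfd, a platelet-derived growth factor, held 11 of 20, Stard13 8 of 25, and Arhgap26 and Cdh13 7 each, of 12 and 13. Mdfic held 6 of 10 in a span of 81.6 kb. Dnm3, a dynamin, held 7 in list 1 and 6 in list 2, and Dlg2 held 6 of 12 in list 2. Spans of these genes ran from 81.6 to 1973 kb, and a long span gathers more summits. The list-only share of their summits ran from 31.8% (Rad51b) to 46.7% (Arid5b among others) in list 1. In list 2 it ran from 21.4% (Lrmda, 6 of 28) to 60.0% (Mdfic among others). Over all peaks the share was 29.1% in list 1 and 28.6% in list 2.

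Chromosomes differed little except X and 9. Over the 19 autosomes the list-only share ran from 25.8% (chromosome 18) to 32.0% (chromosome 8) in list 1 and from 25.8% (chromosome 1) to 33.6% (chromosome 9) in list 2. On X it was 25.1% in list 1 (78 of 311, 20.6 to 30.2%) and 38.1% in list 2 (144 of 378, 33.3 to 43.1%), the highest of any chromosome. Shared peaks on X numbered 233 and 234. The overlap rule makes these numbers nearly equal, so further peaks of list 2 there are list-only by construction. List-2-only peaks on X had a median of 15 fragments, 4.92-fold and a background of 1.87, and 7 of them reached 10-fold, against 0 of the 78 in list 1.

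**Figure D5:**
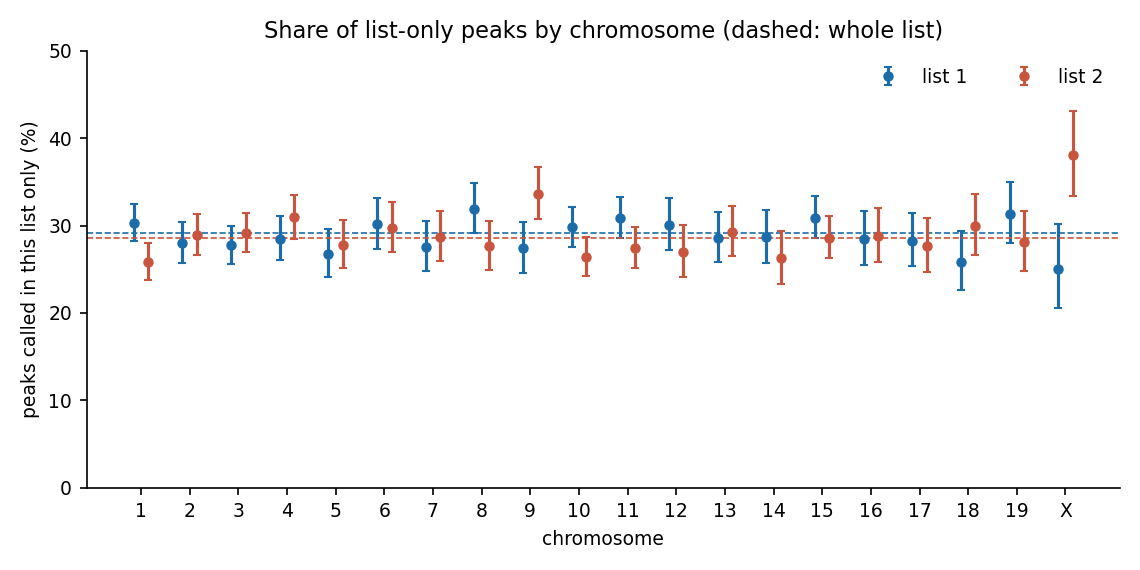
Share of peaks called in 1 list only (%) on each chromosome, for list 1 and list 2, with 95% Wilson intervals as bars and the share of the whole list as a dashed line. X in list 2 (38.1%) lies above the dashed line and above X in list 1 (25.1%).

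On chromosome 9 the list-only peaks of list 2 were packed between 6 and 9 Mb, a stretch that holds Pdgfd, Mmp and Birc genes and Yap1, the coactivator of TEAD1. There, 39 of 77 list 2 peaks were list-only (50.6%, 39.7 to 61.5%), and 1 of 40 in list 1 (2.5%, 0.443 to 12.9%). Elsewhere on the chromosome the shares were 32.2% and 28.6%. The local background of these peaks, taken from the input, was raised in both lists: a median of 11.0 fragments in list 2 and 4.71 in list 1, against 1.87 and 1.72 on the rest of the chromosome. The 39 list-2-only peaks had 22 to 83 fragments (median 42), more than list-only peaks elsewhere, but folds of 2.14 to 7.02 (median 3.29). No other stretch of 1 Mb with at least 10 peaks had a median background over 3 times that of its list. Whether the raised background set these calls was not tested.

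Within that stretch, Pdgfd held 11 list-2-only summits at up to 5.11-fold, and the 10 list 1 summits in its span were all shared. Yap1 held 5 list-2-only summits of 2.5- to 4.18-fold on 33 to 57 fragments, beside 3 shared ones. The shared peak that led there had 434 fragments and 25.8-fold in list 2 and 118 fragments and 13.6-fold in list 1. The strongest list-2-only peak of the stretch by −log10 q was inside Cfap300, with 83 fragments over a background of 11.0, or 7.02-fold (chr9:8028082-8028621). Birc2, Birc3, Mmp27 and Trpc6 held 1 list-2-only summit each.

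Other stretches of 1 Mb with many list-only peaks had background near that of the whole list. In list 1 these were 59 to 60 Mb of chromosome 15, around Nsmce2, Mtss1 and Trib1 (20 of 55 peaks), 73 to 74 Mb of chromosome 12, around Prkch and Hif1a (18 of 42), and 122 to 123 Mb of chromosome 3, around Bcar3 and Abca4 (17 of 43). In list 2, 79 to 80 Mb of chromosome 2 had 13 list-only peaks of 18 (72.2%), 6 of them nearest to Itprid2 and 2 to Itga4, an integrin. All 13 stood at 3.27- to 7.33-fold. List 1 had 7 peaks there, 2 of them list-only. Stretches around Phlda1 on chromosome 10 and Nfib on chromosome 4 had 13 of 36 and 13 of 30 list-only peaks in list 2.

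Among peaks with many fragments, list-only peaks were more often narrow than shared ones. Width is part of the overlap rule, since a narrow interval touches fewer others. Strength was not matched either. At 30 or more fragments the median fold was 9.96 against 13.8 for shared peaks in list 1, and 10.2 against 14.2 in list 2. Among peaks of at least 50 fragments, 4 of 6 list-1-only and 6 of 12 list-2-only peaks were under 400 bp wide, against 7 of 2135 (0.328%) and 22 of 2979 (0.738%) shared peaks. At 30 or more fragments the shares were 13.4% (9 of 67) and 30.8% (45 of 146), against 1.57% and 5.44%. Without the stretch of chromosome 9 and Sfi1 the latter were 12.1% (8 of 66) and 25.6% (30 of 117), against 1.5% and 5.37%, and only 1 list-2-only peak of 50 or more fragments was left, that at Wnt4, which was not narrow. Narrow peaks in list 1 were those inside Ano2 (264 bp, 51 fragments), inside Sfi1 (303 bp, 86 fragments) and near Malt1 (322 bp, 69 fragments), and the peak at Epha2 in list 2 was 290 bp wide on 49 fragments. In the weakest class by −log10 q, 76.1% and 78.8% of list-only peaks were under 400 bp, against 62.4% and 63.0% of shared ones. The sources used here do not say whether repeated reads were removed before calling, and their part was not tested.

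A few list-only peaks stood on high background. The list-1-only peak with most fragments, 109, lay inside Rn18s-rs5, a pseudogene of 18S ribosomal RNA (chr17:39847494-39848200), at 4.94-fold over a background of 21.3, and the nearest list 2 summit was 956 kb away. Inside Sfi1 on chromosome 11, list 1 had a list-only peak over a background of 44.1 fragments at 1.93-fold, and list 2 had 2, over 58.9 at 2.04-fold and over 35.1 at 2.33-fold. These were the highest backgrounds of any list-only peak. The Sfi1 peaks thus held many fragments at folds below the median of list-only peaks, and the Rn18s-rs5 peak lay above that median.

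MicroRNA genes were rarely touched. Within 1 kb of a hairpin lay 2 list-1-only summits (Mir6985 and Mir3086) and 4 list-2-only summits (Mir6931, Mir6928 and the hairpins of miR-12182 and miR-12190). Shared summits there numbered 17 in each list. The shares were 0.0323% of list-1-only and 0.0659% of list-2-only summits, against 0.113% and 0.112% of shared ones, with overlapping intervals. Folds of these list-only peaks ran from 2.87 to 9.77, with the highest at Mir6931.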

How the data were processed

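ChIP and input libraries of neonatal mouse cardiac fibroblasts were compared, 1 library in each of 4 groups. Per the submitters' processing notes, the tools were Trimmomatic 0.33, Bowtie 1.1.2 and MACS2 (no version given), and the build named is mm39. The authors deposited 2 narrowPeak lists, each called against input, per the file names. Each deposited row holds a score, a fold over input (a ratio at the summit), −log10 p, −log10 q and a summit. The score was the whole part of 10 times −log10 q in 21285 of 21285 and 21216 of 21218 rows. No source states filters or duplicate handling.

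From each fold and −log10 p, the ChIP fragments and the local background at the summit were solved with MACS2's formulas, a pseudocount of 1 on both sides and a Poisson tail. The number of fragments came out whole within 0.02 in 99.99% of peaks, all but 2 in each list. No total read counts were used, so library depth is unknown here. Coordinates were read as GRCm38: 762 and 705 summits lay within 1 kb of a GRCm38.p6 transcription start, against 379 to 442 after shifts of 20 to 100 kb. Gene spans and promoter sequences came from RefSeq GRCm38.p6, and 378 of 378 gene list members were matched. The gene table has no strand, so the distance to either end of a span was used in place of the distance to the start. Motifs were read in promoter windows only, since no genome was used.

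Shares carry 95% Wilson intervals where computed, which was not done for gene lists, and folds carry exact Poisson intervals of the fragments. Both cover counting error only, and PCR copies are not independent molecules. Named genes are those of the 12 strongest list-only peaks within 10 kb of a gene and the 5 strongest anywhere, the top 2 of each gene list, the 6 genes with most list-only summits, the 4 strongest peaks with no other summit within 50 kb, the 4 strongest at promoters, the edges of the rule, and Wnt4, Tead1, Yap1, Ccn1, Ccn2 and Ankrd1. Other genes in the text, such as further members of gene lists, genes on chromosome X and around dense stretches, Rn18s-rs5, Sfi1 and the microRNAs, were named after their values were seen. The members and gene lists were chosen with earlier results of these data known. Alternatives changed the overlap rule, the −log10 q limit, the chromosomes, the genes and the distance. Transcription starts, and leaving out 3 Mb of chromosome 9, were added after seeing the data. Computations used Python 3.11.15, numpy 2.4.6, pandas 2.3.3, scipy 1.17.1 and matplotlib 3.10.9, and were tested on simulated data.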

Additional observations from a re-analysis of the deposited data

How the results depend on the processing

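Of 96 values of 10 results under 12 alternative settings, 62 moved by less than their interval (counts by less than 1.5 times) and 34 moved. The counts of genes with a nearby summit in 1 list only do not use the overlap rule. Its alternatives could not move them, and those values are among the 62. In each pair that follows, list 1 comes before list 2. With members limited to −log10 q of at least 5 and the other list whole, list-only peaks numbered 3005 and 3569, and genes with a nearby summit in that list only 713 and 723. The median distance in list 1 was then 15.7 kb. With both lists limited in this way, list 1 had 3755 list-only peaks and the median distances were 17.6 and 22.3 kb. With both limited to their 10000 strongest peaks, list-only peaks numbered 2328 and 2300, and 29.9% and 28.3% of them lay within 10 kb of a gene end. The median distances were then 33.3 and 38.1 kb and the genes 660 and 628. Each limit leaves fewer members, and the limits on both lists also leave fewer peaks in the list searched, so those counts and distances shift by construction. The cause of the shift to 15.7 kb was not tested. Calling peaks shared by summits within 250 bp gave median distances of 12.4 and 13.1 kb, and by intervals within 500 bp 15.9 and 17.9 kb. With genes of all types, 59.6% and 57.4% of list-only summits lay inside a span and 52.0% and 50.7% within 10 kb of an end. At 1 kb the shares near an end were 6.30% and 5.52% and the genes 421 and 349, and at 50 kb the shares were 70.1% and 67.0%. With transcription starts in place of gene ends, an alternative added after seeing the data, the shares were 22.8% and 21.2% and the genes 858 and 800. Shared peaks were lower than list-only peaks in that setting too, at 18.9% and 18.8%. Leaving out 3 Mb of chromosome 9, also added, moved none of the 10 results. That stretch held only 1 list-1-only and 39 list-2-only peaks, so leaving it out could move them little. No paired analysis was possible because each group has 1 library and the lists are tied to no group. The number of fragments limits what a list-only call shows, since peaks of 8 to 14 fragments were mostly list-only in both lists.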
